A study of Mus musculus with 12 samples.

Results

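Cultures of DC2.4, a dendritic cell line of the mouse that grows without limit, were exposed to extracellular vesicles shed by activated T cells (ATEV), and their transcriptome was compared with that of cells given phosphate-buffered saline (PBS). The comparison was defined by the treatment labels alone and takes 6 of the 12 libraries of the series, 3 with ATEV and 3 with PBS. Of 42687 gene identifiers in the table of counts, the 13261 with enough counts were tested. ATEV were given at 15 µg/mL. The 2 other groups, which entered the same fit and served to test where the ATEV response differed, received 15 µg/mL of ATEV pretreated with Baseline-ZERO DNase, an enzyme that degrades DNA, or 30 µg/mL of vesicles of non-activated T cells (NTEV). The cells of all 4 groups carried the genotype label WT and shared medium, seeding density and plate format. Agents were added once the seeded cells had been incubated overnight, and a day later the cells were collected and seeded again. The labels state 3 repeats, which may be rounds on the same cells or separate experiments. They also put 5 µg/mL of vesicle DNA beside the NTEV dose, which may cover the ATEV dose too. Whether replicate libraries stem from separate cultures is not said in the labels, and the p-values therefore measure the spread between these libraries, which may be technical. A single cell line was used, and the donors and activation of the T cells are not given in the sources used here.

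Activated T cells release membrane vesicles that carry protein, RNA and DNA, and neighbouring antigen-presenting cells can take them up. Interferons, the cytokines that many of the genes below respond to, bind surface receptors and activate JAK kinases, which phosphorylate STAT proteins. STAT proteins together with IRF9 bind the interferon-stimulated response element (ISRE), and paired STAT proteins bind the gamma-activated site (GAS). In dendritic cells and macrophages the target genes include antiviral proteins, GTPases that attack the compartments of intracellular microbes, and the machinery that presents peptides on MHC class I.

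Library totals lay between 19392942 and 26383990 counts in PBS and ATEV libraries. A count of 0 in a library allows up to 3 counts, or 0.12 to 0.159 CPM (gene counts scaled to a fixed library size), and covers counting error only. Levels below are CPM scaled by the trimmed mean of M-values (TMM). An approximate SE of a log2 fold change follows ±. It is the absolute log2 fold change divided by the square root of the F statistic of its test. The line's dendritic label was met in part by its markers, since 11 of 22 listed dendritic cell markers had enough counts to be tested. In the PBS libraries these markers summed to 945, 1035 and 1037 CPM and the listed macrophage markers to 4644, 3984 and 4810 CPM. Itgax, the CD11c integrin chain, was at 12.7, 20.3 and 15.3 CPM in the PBS libraries and Irf8, a transcription factor of dendritic cell development, at 124, 98.9 and 114 CPM. Flt3, a receptor of conventional dendritic cells, had 0 counts in the PBS libraries and 1 count in the ATEV libraries. In PBS, Ccr7 had 2 counts and H2-Ab1 had 1, both also on the dendritic list. In bulk RNA, fewer cells of a type and less RNA per cell cannot be told apart.

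With ATEV, 440 genes rose and 188 fell at an adjusted p under 0.05, together 4.74% of the genes tested (3.32% higher and 1.42% lower). The ATEV libraries lay above the PBS libraries without overlap for 2161 genes (16.3%) and below for 2223 (16.8%). Among called genes, 243 rises and 38 falls were at least 2-fold, and 83 rises and 14 falls at least 4-fold. Each of the 6 libraries was also left out in turn (leave-one-out fits), and 137 rises and 12 falls were called in all 6 of these fits. Without ATEV replicate 1 the number of calls was 849, without ATEV replicate 2 207, without ATEV replicate 3 284, without PBS replicate 1 235, without PBS replicate 2 169 and without PBS replicate 3 315. Rises and falls against PBS of single genes given with values below were called in all 6 leave-one-out fits unless the libraries that changed it are named. The rule does not cover the numbers of rises and falls in gene lists, which are those of the fit of all libraries. All 10 rises of class I heavy chains kept the call in every leave-one-out fit. Only 2 of 6 rises of the immunoproteasome list, 1 of 6 of complement and 1 of 6 of macrophage markers did.

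**Figure D1:**
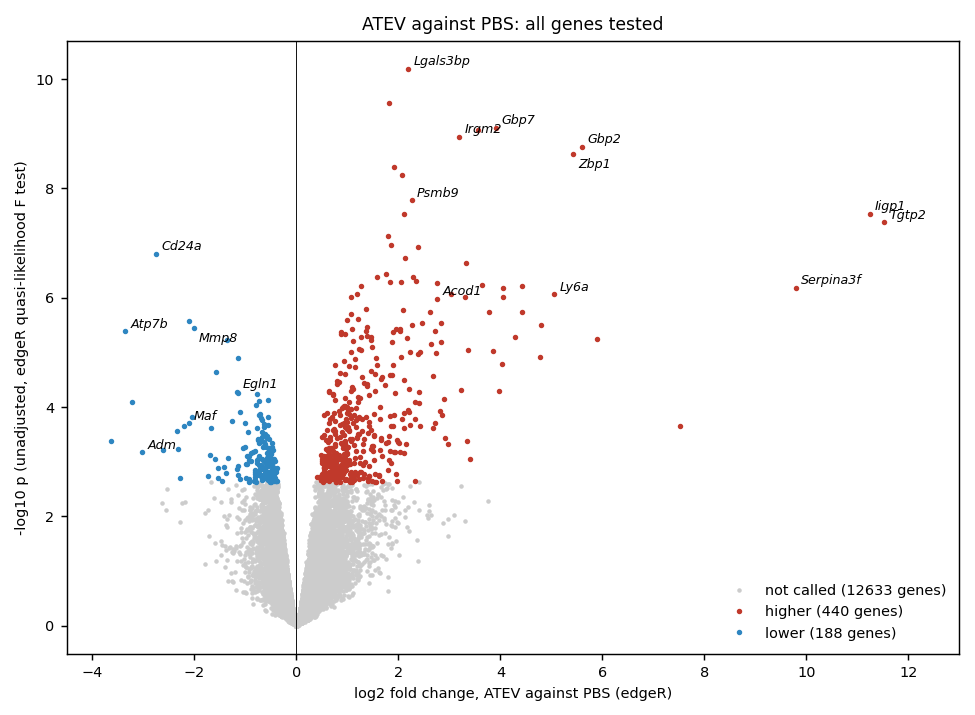
Each point is 1 of the 13261 genes tested, with the log2 fold change of ATEV against PBS on the horizontal axis and the unadjusted −log10 p of edgeR's quasi-likelihood F test on the vertical axis. Genes called higher (440) are red and those called lower (188) blue, and the named rises include the GTPases Gbp2, Gbp7, Irgm2, Iigp1 and Tgtp2. The fitted values of Iigp1, Tgtp2 and Serpina3f, which had 0 PBS counts, depend on the fit's prior count.

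No listed interferon gene was detected at a level that could be tested. Of 16 interferon genes and receptors listed, 9 had 0 counts in all 6 libraries, among them Ifnb1, the interferon beta gene, and Ifng, the interferon gamma gene. The 5 tested members were receptor chains, and edgeR, DESeq2 and limma-voom called 0 of them, with 0 also at an unadjusted p under 0.05 in edgeR. Ifnar1, a chain of the receptor for interferon alpha and beta, was at 69.1, 65.5 and 75.8 CPM in PBS and 81.7, 88.5 and 75 CPM in ATEV libraries, with a log2 fold change of 0.22 ± 0.14 (adjusted p = 0.32). For Ifngr1, a chain of the interferon gamma receptor, the levels were 47.6, 49.9 and 64.4 CPM in PBS and 48.8, 44.2 and 51.8 CPM in ATEV libraries (log2 fold change -0.16 ± 0.14, adjusted p = 0.486). The groups overlapped for both genes.

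Below the receptors, 6 of 26 tested genes of JAK, STAT and IRF signalling and its feedback rose and none fell, with a median log2 fold change of 0.25 against 0.03 over all genes tested. Irf1, a transcription factor of class I presentation, rose from 11.1, 12.2 and 28.5 to 119.9, 127 and 122 CPM (log2 fold change 2.83 ± 0.37, adjusted p = 0.000786). PBS replicate 3 was the highest control for Irf1 and still lay far below the ATEV libraries. Irf7, which amplifies type I interferon genes, rose from 3.92, 2.91 and 3.19 to 19.2, 12 and 11.4 CPM (log2 fold change 2.08 ± 0.26, adjusted p = 0.000561). Irf9, the DNA-binding partner of STAT proteins, rose by 1.45 ± 0.23 on the log2 scale (adjusted p = 0.00293). Stat2 had a log2 fold change of 1.25 ± 0.29 (adjusted p = 0.03) and was not called without ATEV replicate 2, ATEV replicate 3, PBS replicate 1 or PBS replicate 2 (adjusted p = 0.121, 0.0572, 0.126 and 0.114, and as low as 0.0406 over the 6 leave-one-out fits). Of the feedback genes, Socs1, an inhibitor of JAK kinases, was at 2.32, 2.21 and 2.46 CPM in PBS and 2.37, 2.58 and 2.76 CPM in ATEV libraries (adjusted p = 0.718). Usp18, which removes ISG15 and restrains the type I receptor, was at 0.679, 0.516 and 0.603 CPM in PBS and 3.19, 1.48 and 0.795 CPM in ATEV libraries (adjusted p = 0.0915), with ATEV replicate 1 highest.

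The guanylate-binding proteins, interferon-induced GTPases that coat and break microbial compartments, rose in all 6 tested members, with a median log2 fold change of 4.34, and 5 of them kept the call in all leave-one-out fits. Gbp2 (ENSMUSG00000028270) was at 1.16, 0.61 and 0.646 CPM in PBS libraries and 38.5, 32.1 and 48.1 CPM in ATEV libraries (log2 fold change 5.59 ± 0.39, adjusted p = 3.82e-06). Gbp7 went from 1.76, 2.02 and 1.55 to 33.7, 22.2 and 24.2 CPM (log2 fold change 3.91 ± 0.25, adjusted p = 2.78e-06). Gbp3 went from 4.35, 3.29 and 2.41 to 42.7, 34.3 and 42.5 CPM (log2 fold change 3.56 ± 0.23, adjusted p = 2.78e-06). In each the lowest ATEV library lay several times above the highest PBS library. Gbp5 had 2 PBS counts, all in replicate 1, and 126 ATEV counts, a depth-scaled ratio of 69.5 with a 95% counting interval from 18.8 to 580.2. The sixth member, Gbp9, named here after its values were seen, had a log2 fold change of 3.35 ± 0.68 (adjusted p = 0.0208) and was not called without ATEV replicate 3, PBS replicate 2 or PBS replicate 3 (adjusted p = 0.068, 0.087 and 0.068, and as low as 0.0231 over the 6 leave-one-out fits).

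The immunity-related GTPases, which act on the membranes of vacuoles that hold microbes, rose in 7 of 9 tested members. Tgtp2 (ENSMUSG00000078921) had 0 counts in each PBS library and 302, 279 and 416 counts in the ATEV libraries. With the PBS group set to its floor, 3 counts in all, the ATEV libraries were 367-fold higher. Such a floor ratio leaves out counting error in the ATEV libraries and the spread between libraries. Iigp1 had 0 counts in PBS and 255, 259 and 313 in ATEV libraries, a floor ratio of 304-fold. Both genes thus had no counted read in the controls and at least 255 counts in each ATEV library. Irgm1, a regulatory member that guards the cell's own membranes, went from 12.1, 16.3 and 15.3 to 58.7, 54.7 and 51.7 CPM (log2 fold change 1.92 ± 0.14, adjusted p = 6.65e-06). Irgm2, also regulatory, went from 3, 2.63 and 4.27 to 35.2, 25.5 and 29.8 CPM (log2 fold change 3.19 ± 0.21, adjusted p = 3.04e-06), which is also the median of the list. Igtp (also called Irgm3) rose by 2.12 ± 0.18 on the log2 scale (adjusted p = 3.25e-05). Both families hold near-identical copies, so the split of reads between members is uncertain.

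Of the 15 largest rises 9 had a promoter window in the RefSeq table, of which 8 held an interferon-type pattern and 1, of H2-Q7, held neither. The stretches of 6 of them are shown because they were picked for holding such a pattern near the start, in order of fold change. The stretches run from 150 bases to 1 base before the RefSeq start on GRCm38.p6, read 5′ to 3′ on the gene's strand, with matches to 2 patterns on either strand in capitals. The ISRE pattern was GAAA, any 2 bases and GAAA, and the GAS pattern was TTC, any 3 bases and GAA.
Tgtp2, chr11:49064213-49064362, minus strand: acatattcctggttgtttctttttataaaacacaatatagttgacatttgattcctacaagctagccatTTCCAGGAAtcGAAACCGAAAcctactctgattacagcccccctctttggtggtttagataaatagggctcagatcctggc
Serpina3f, chr12:104214394-104214543, plus strand: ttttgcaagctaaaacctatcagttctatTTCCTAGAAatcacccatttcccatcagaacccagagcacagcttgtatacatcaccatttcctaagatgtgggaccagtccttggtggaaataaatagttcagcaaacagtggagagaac
Gbp5, chr3:142496784-142496933, plus strand: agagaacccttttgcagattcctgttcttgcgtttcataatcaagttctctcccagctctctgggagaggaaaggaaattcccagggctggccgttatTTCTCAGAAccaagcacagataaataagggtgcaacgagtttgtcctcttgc
Gbp2, chr3:142620513-142620662, plus strand: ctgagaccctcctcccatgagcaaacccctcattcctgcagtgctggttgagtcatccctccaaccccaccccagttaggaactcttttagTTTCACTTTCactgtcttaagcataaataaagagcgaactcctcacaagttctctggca
Serpina3g, chr12:104235997-104236146, plus strand: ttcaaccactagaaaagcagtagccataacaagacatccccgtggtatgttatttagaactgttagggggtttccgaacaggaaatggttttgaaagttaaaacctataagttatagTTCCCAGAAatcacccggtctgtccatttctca
Ifi211, chr1:173913047-173913196, minus strand: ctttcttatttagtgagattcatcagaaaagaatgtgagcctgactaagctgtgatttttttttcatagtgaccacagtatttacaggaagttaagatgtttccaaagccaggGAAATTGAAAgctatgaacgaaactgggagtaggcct
Within these stretches Tgtp2 held both patterns a few bases apart, Gbp2 and Ifi211 an ISRE, and Gbp5, Serpina3f and Serpina3g a GAS. Farther upstream, outside the stretch shown, Gbp5 also held an ISRE match and another GAS match.

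Over whole promoter windows, from 250 bases before to 50 after the start, 60 of the 412 windows of genes that rose held the ISRE pattern on either strand (14.6%). Among windows of genes that fell the share was 2.15%, and over all tested genes 3.16%. The GAS pattern was found in 10.7% of windows of rises, 5.91% of falls and 6.73% of all tested. The looser NF-kB pattern (GGG, any 5 bases and CC) was in 62.6%, 67.7% and 66.7%. A stretch can match more than 1 pattern, and a match describes the letters and no more. Windows were matched by symbol for 324 of 440 rises, 142 of 188 falls and 9356 of 13261 tested genes. The 58 rises with an ISRE match had a median log2 fold change of 1.71, and the 266 rises whose windows had none 0.96.

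**Figure D2:**
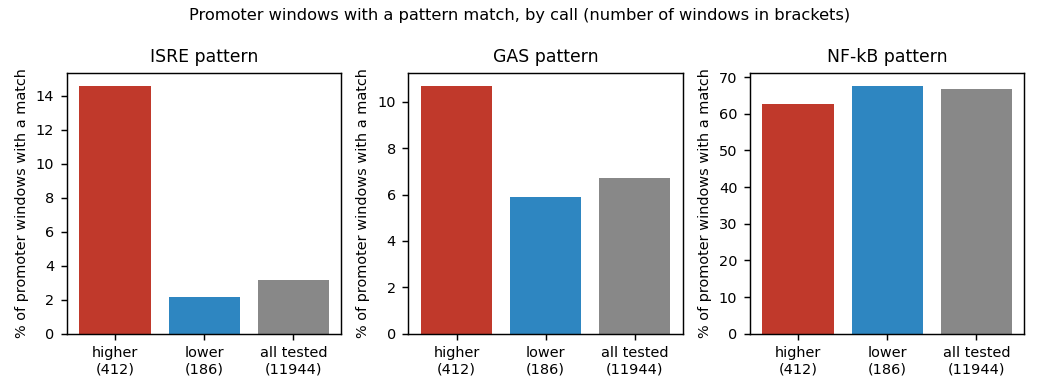
Bars give the percentage of RefSeq promoter windows with at least 1 match to each pattern on either strand, for genes called higher, called lower and all tested genes. The ISRE bar for higher genes stands at 14.6% against 3.16% for all tested genes, while the 3 NF-kB bars lie between 62.6% and 67.7%.

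Antiviral effectors rose in 21 of 38 tested members and fell in none, with a median log2 fold change of 0.67, and 10 of the rises kept their call in all leave-one-out fits. Oasl2, of the oligoadenylate synthetase family, was at 1.68, 1.31 and 1.29 CPM in PBS and 18.2, 12.9 and 11.9 CPM in ATEV libraries (log2 fold change 3.32 ± 0.34, adjusted p = 0.000164). Mx1, a GTPase that blocks virus replication, went from 0.2, 0.0939 and 0.129 to 2.37, 3.34 and 3.82 CPM (log2 fold change 4.42 ± 0.50, adjusted p = 0.000278). Xaf1, a pro-apoptotic protein, rose by 2.02 ± 0.27 on the log2 scale (adjusted p = 0.000897) and Sp110, a nuclear body protein, by 1.38 ± 0.18 on the log2 scale (adjusted p = 0.000869). The tested Ifit genes, which bind viral RNA and are common markers of type I interferon, were not called. Ifit3 was at 0.639, 0.235 and 0.302 CPM in PBS and 0.646, 0.43 and 0.742 CPM in ATEV libraries, and the groups overlapped (log2 fold change 0.60 ± 0.53, adjusted p = 0.484). Ifit1, named after its values were seen, had a log2 fold change of 0.51 ± 0.50 (adjusted p = 0.529).

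ISG15 is a ubiquitin-like protein, and 3 of 7 tested genes of its conjugation rose. Isg15 went from 1.64, 0.986 and 0.776 to 4.3, 4.35 and 5.51 CPM (log2 fold change 2.04 ± 0.30, adjusted p = 0.00184). Ube2l6, the conjugating enzyme, rose by 0.94 ± 0.17 on the log2 scale (adjusted p = 0.00673). Uba7, the activating enzyme, had a log2 fold change of 1.48 ± 0.32 (adjusted p = 0.0231). Uba7 was not called without ATEV replicate 2, ATEV replicate 3, PBS replicate 1 or PBS replicate 2 (adjusted p = 0.0957, 0.0768, 0.0979 and 0.106, and as low as 0.0105 over the 6 leave-one-out fits). Of the interferon-linked PARP enzymes, which attach ADP-ribose, 6 of 15 rose and 1 fell. Parp14 rose from 11.7, 8.64 and 11.2 to 43.7, 39.7 and 31.1 CPM (log2 fold change 1.86 ± 0.18, adjusted p = 9.56e-05), and Parp3 from 44.2, 40.8 and 40.6 to 74.7, 77.4 and 77.2 CPM (log2 fold change 0.87 ± 0.12, adjusted p = 0.000921). The fall was in Parp1, the DNA-repair enzyme (log2 fold change -0.70 ± 0.18, adjusted p = 0.0453), and it was not called in any leave-one-out fit (adjusted p from 0.0684 to 0.162). Among 28 tested TRIM ubiquitin ligases 6 rose and 1 fell. Trim30a was at 6.15, 3.57 and 3.92 CPM in PBS and 11.5, 15.8 and 18.3 CPM in ATEV libraries (log2 fold change 1.73 ± 0.29, adjusted p = 0.00459) and Trim12a at 4.35, 4.37 and 4.52 CPM in PBS and 9.94, 11.8 and 12.5 CPM in ATEV libraries (log2 fold change 1.37 ± 0.18, adjusted p = 0.00091). The lone fall, Trim37, named after its value was seen, had a log2 fold change of -0.41 ± 0.11 (adjusted p = 0.0472) and was not called without ATEV replicate 2, ATEV replicate 3, PBS replicate 1, PBS replicate 2 or PBS replicate 3 (adjusted p = 0.159, 0.11, 0.168, 0.186 and 0.0744, and as low as 0.0419 over the 6 leave-one-out fits).

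Of the sensors of foreign nucleic acid, 7 of 25 tested DNA-sensing and DNA-degrading genes and 6 of 17 RNA-sensing genes rose, and none fell. Zbp1, a sensor of Z-form nucleic acid counted in both lists, went from 0.28, 0.0939 and 0.215 to 7.36, 7.55 and 11.6 CPM (log2 fold change 5.43 ± 0.38, adjusted p = 4.4e-06). It was near the detection floor in PBS and well above that floor in each ATEV library. Cgas, the enzyme that senses cytosolic DNA, was at 41.5, 38.7 and 44.4 CPM in PBS and 31.5, 36 and 42.3 CPM in ATEV libraries (log2 fold change -0.18 ± 0.16, adjusted p = 0.478). Tmem173, which encodes its adaptor STING, was at 76.1, 74.2 and 73.4 CPM in PBS and 77.8, 59.7 and 64.5 CPM in ATEV libraries (log2 fold change -0.15 ± 0.13, adjusted p = 0.48). Both groups overlapped for these genes of the DNA-sensing core. The p200 family, nuclear proteins that bind DNA, gave 3 rises that held in every leave-one-out fit. Ifi211 went from 0.28, 0.0469 and 0.0862 to 1.46, 2.29 and 3.5 CPM (log2 fold change 4.03 ± 0.61, adjusted p = 0.00237), Ifi204 rose by 2.11 ± 0.34 on the log2 scale (adjusted p = 0.00385) and Ifi203 by 1.38 ± 0.23 on the log2 scale (adjusted p = 0.00443). The p200 genes are near-copies, and their reads may be shared. Ifih1, the RNA sensor MDA5, rose from 5.63, 3.9 and 5 to 15.2, 12.8 and 11.8 CPM (log2 fold change 1.45 ± 0.20, adjusted p = 0.00103).

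**Figure D3:**
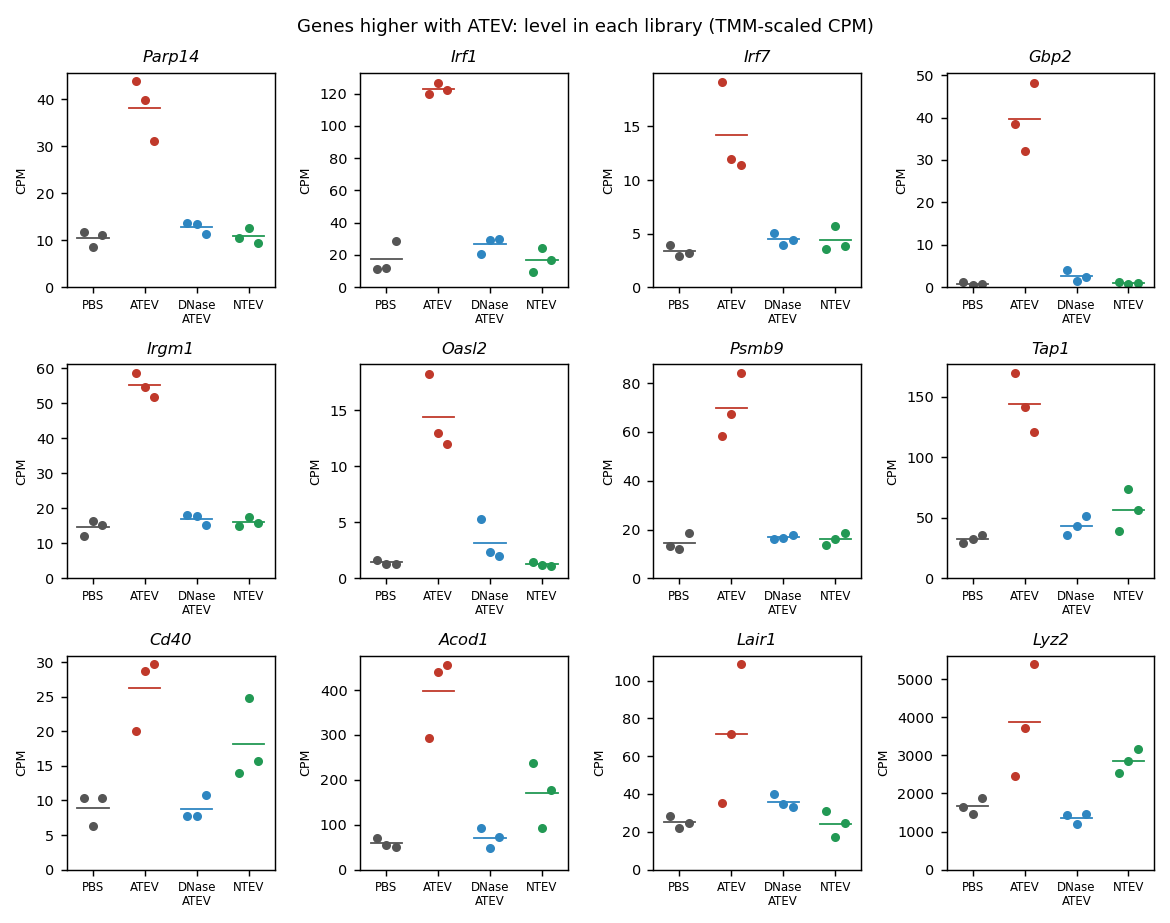
Points are the TMM-scaled CPM of single libraries on a linear axis from 0, in PBS, ATEV, DNase-treated ATEV and NTEV groups of 3, and short lines are group means. The ATEV libraries lie above the PBS libraries in each panel, most evenly for Irf1 (119.9, 127 and 122 CPM) and least evenly for Lair1 (35.4, 71.5 and 109 CPM).

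The route of peptides to MHC class I was raised at several steps. The immunoproteasome and proteasome activators rose in 6 of 9 tested members (median log2 fold change 0.89), while 0 of 31 standard proteasome genes were called by edgeR (median -0.09), with 2 of them at an unadjusted p under 0.05, 1 called by DESeq2 and 0 by limma-voom. Psmb9, an interferon-inducible catalytic subunit, went from 13.3, 12.1 and 18.4 to 58.4, 67.5 and 84.1 CPM (log2 fold change 2.26 ± 0.19, adjusted p = 2.17e-05). Psmb8, its partner, went from 91.4, 77.5 and 83.6 to 140.2, 171 and 219.6 CPM (log2 fold change 1.07 ± 0.18, adjusted p = 0.00546). Psmb10, the remaining catalytic subunit of the set, had a log2 fold change of 0.89 ± 0.19 (adjusted p = 0.0222) and was not called without ATEV replicate 2, ATEV replicate 3, PBS replicate 2 or PBS replicate 3 (adjusted p = 0.0628, 0.0773, 0.131 and 0.0669, and as low as 0.0238 over the 6 leave-one-out fits). Psmb6, the standard subunit that Psmb9 replaces, was at 289.8, 274 and 268 CPM in PBS and 267, 350.2 and 455 CPM in ATEV libraries (log2 fold change 0.37 ± 0.17, adjusted p = 0.191). All 6 raised members were highest in ATEV replicate 3 and lowest in replicate 1.

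Among 10 genes of peptide loading 6 rose and none fell, with 5 of the rises kept in all leave-one-out fits. Tap1, a subunit of the peptide pump into the endoplasmic reticulum, went from 29.6, 32.8 and 36 to 169.5, 141 and 121 CPM (log2 fold change 2.14 ± 0.22, adjusted p = 0.00014), and its partner Tap2 from 31.9, 22.8 and 25.4 to 68.5, 58.4 and 55.4 CPM (log2 fold change 1.19 ± 0.14, adjusted p = 0.000338). Tapbp (tapasin), which holds class I at the pump, rose by 1.00 ± 0.13 on the log2 scale (adjusted p = 0.000741), and the peptide editor Tapbpl by 1.75 ± 0.19 on the log2 scale (adjusted p = 0.000243). Nlrc5, the transactivator of class I genes, went from 48.5, 54.1 and 61.1 to 101, 125 and 117 CPM (log2 fold change 1.07 ± 0.13, adjusted p = 0.000353). B2m, the light chain of class I, was among the most abundant rises at 556, 650.5 and 625 CPM in PBS and 1183, 1009 and 913 CPM in ATEV libraries (log2 fold change 0.76 ± 0.15, adjusted p = 0.0124) and was not called without PBS replicate 1 or without PBS replicate 2 (adjusted p = 0.0645 and 0.0512, and as low as 0.0149 over the 6 leave-one-out fits).

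The MHC class I heavy chains rose in 10 of 12 tested members, with a median log2 fold change of 1.38, and all 10 kept the call in every leave-one-out fit. The classical chain H2-K1 went from 465, 453 and 425 to 817, 738 and 703 CPM (log2 fold change 0.75 ± 0.11, adjusted p = 0.00238) and H2-D1 from 455, 395 and 401 to 844, 825 and 766 CPM (log2 fold change 0.96 ± 0.13, adjusted p = 0.00097). The non-classical H2-Q7, which belongs to the Qa-2 group, went from 0.32, 0.235 and 0.172 to 3.87, 4.11 and 4.45 CPM (log2 fold change 4.06 ± 0.46, adjusted p = 0.000289), and H2-Q4 from 13.9, 12.1 and 12.7 to 71.9, 61.4 and 54.5 CPM (log2 fold change 2.28 ± 0.25, adjusted p = 0.000256). Reads of H2 genes can map to more than 1 copy, so the values of single chains are uncertain.

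Ciita and the class II chain H2-Ab1 had few counts in either group. Ciita, the master transactivator of class II, had 0 counts in PBS and 6, 5 and 11 in the ATEV libraries, a floor ratio of 8.09-fold. Ciita was not tested by the model because it missed the count filter. H2-Ab1, a class II beta chain, had 1 PBS count and 28 ATEV counts, a ratio of 30.9 with a 95% counting interval from 5.11 to 1263. Cd74, the invariant chain, was at 95.3, 118 and 78.5 CPM in PBS and 178, 110.3 and 108 CPM in ATEV libraries (log2 fold change 0.44 ± 0.22, adjusted p = 0.216), with ATEV replicate 1 alone clearly above. Of 9 class II presentation genes tested, 3 rose, of which Ctss was called in all leave-one-out fits. Ctss, a cathepsin that cuts the invariant chain, went from 548, 536 and 659 to 898, 996 and 1148 CPM (log2 fold change 0.80 ± 0.13, adjusted p = 0.00437).

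Of 24 tested costimulation and checkpoint genes 8 rose and none fell. Cd40, the receptor through which helper T cells license dendritic cells, went from 10.3, 6.24 and 10.3 to 20.1, 28.8 and 29.8 CPM (log2 fold change 1.55 ± 0.26, adjusted p = 0.00546). Il15ra, which presents interleukin 15, went from 9.47, 11.5 and 13.6 to 20.1, 19.8 and 27.9 CPM (log2 fold change 0.97 ± 0.18, adjusted p = 0.00862). Il15 itself was at 5.71, 7.42 and 10.9 CPM in PBS and 5.81, 5.73 and 6.2 CPM in ATEV libraries (log2 fold change -0.44 ± 0.28, adjusted p = 0.318). Cd80 and Cd86 encode the ligands of CD28. Cd80 was at 8.67, 8.22 and 8.1 CPM in PBS and 18.2, 16.1 and 14.4 CPM in ATEV libraries (log2 fold change 0.96 ± 0.22, adjusted p = 0.0277) and was not called in any leave-one-out fit (adjusted p from 0.0509 to 0.118). Cd86 was at 45.1, 43.1 and 53.4 CPM in PBS and 56.9, 52.5 and 79.5 CPM in ATEV libraries, with overlap (log2 fold change 0.41 ± 0.17, adjusted p = 0.155). Cd274, which encodes the checkpoint ligand PD-L1, had a log2 fold change of 1.24 ± 0.31 (adjusted p = 0.0419). Cd274 was not called without ATEV replicate 1, ATEV replicate 2, ATEV replicate 3, PBS replicate 1 or PBS replicate 2 (adjusted p = 0.0595, 0.149, 0.0623, 0.141 and 0.115, and as low as 0.0477 over the 6 leave-one-out fits). Lgals9, a galectin that binds T cell receptors of the checkpoint class, rose from 16.3, 13 and 22 to 44.1, 48.2 and 41.1 CPM (log2 fold change 1.38 ± 0.19, adjusted p = 0.00102). Lgals3bp, which is secreted and binds galectins, went from 17.4, 17.1 and 18.5 to 81.9, 85.1 and 74 CPM (log2 fold change 2.18 ± 0.12, adjusted p = 8.52e-07), with little spread in either group.

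Among cytokines 2 of 20 tested genes rose and 1 fell, and 2 of 13 chemokines rose. Il27, the p28 subunit of interleukin 27, went from 0.28, 0.141 and 0.259 to 1.51, 1.39 and 1.7 CPM (log2 fold change 2.71 ± 0.36, adjusted p = 0.00091). Il12rb1, a receptor chain for interleukins 12 and 23, went from 1.52, 1.74 and 1.59 to 9.08, 9.03 and 7.16 CPM (log2 fold change 2.38 ± 0.23, adjusted p = 9.74e-05). Tnf was at 11.1, 14.1 and 27.6 CPM in PBS and 34.4, 26.2 and 32.5 CPM in ATEV libraries, with overlap (log2 fold change 0.82 ± 0.28, adjusted p = 0.0992). Tnf was called without PBS replicate 3 (adjusted p = 0.00926) and in no other leave-one-out fit (adjusted p from 0.159 to 0.301). Cxcl16, a membrane-bound chemokine for CXCR6-bearing T cells, rose from 5.35, 3.24 and 3.62 to 10.8, 16.9 and 22.6 CPM (log2 fold change 2.04 ± 0.27, adjusted p = 0.00091). Ccl5 had a log2 fold change of 2.11 ± 0.48 (adjusted p = 0.0274) and was not called without ATEV replicate 2, ATEV replicate 3, PBS replicate 1, PBS replicate 2 or PBS replicate 3 (adjusted p = 0.0544, 0.0941, 0.0512, 0.135 and 0.0739, and as low as 0.0274 over the 6 leave-one-out fits). Cxcl10, a T cell attractant induced by interferons in many cells, was at 0.839, 0.235 and 0.474 CPM in PBS and 0.43, 0.621 and 1.43 CPM in ATEV libraries, which overlapped (log2 fold change 0.63 ± 0.51, adjusted p = 0.437). Cxcl9, a related chemokine, had 0 PBS counts and 0, 1 and 7 ATEV counts in replicates 1 to 3, nearly all from 1 library.

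**Figure D4:**
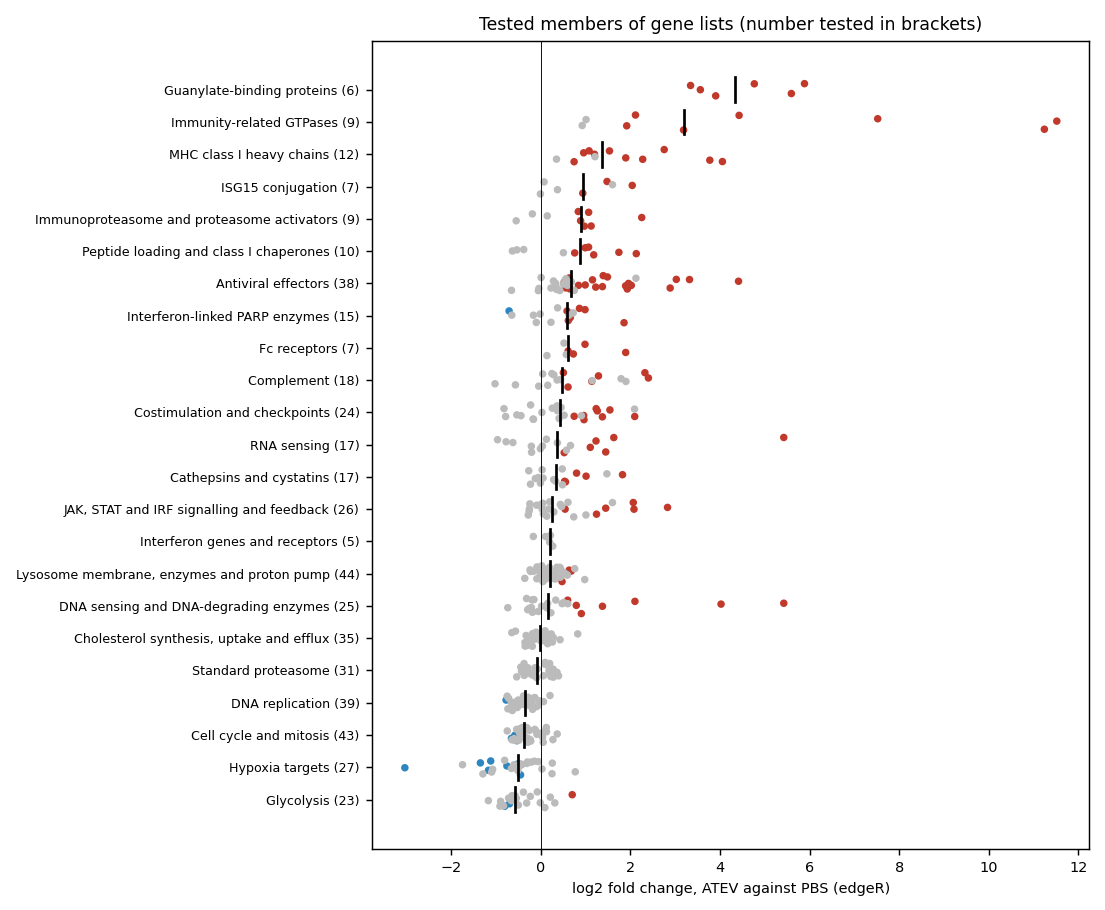
Each point is 1 tested gene of a list, placed by its log2 fold change of ATEV against PBS; red points were called higher, blue lower and grey not called, and black bars mark list medians. The points farthest right, Tgtp2 and Iigp1, had 0 PBS counts, and their place depends on the fit's prior count. Guanylate-binding proteins have the highest median (4.34), and of the lists drawn hypoxia targets and glycolysis lie lowest (-0.51 and -0.57).

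Cell death effectors rose in 8 of 30 tested members and fell in none. Casp4, the inflammatory caspase (caspase 11) that senses cytosolic lipopolysaccharide, went from 4.51, 4.55 and 4.27 to 21.8, 18.2 and 27.4 CPM (log2 fold change 2.34 ± 0.26, adjusted p = 0.000275). Casp1, the caspase of inflammasomes, went from 31.2, 26.5 and 35.8 to 50.8, 63 and 85.5 CPM (log2 fold change 1.09 ± 0.18, adjusted p = 0.00475). Gsdmd, the pore protein these caspases cut, had a log2 fold change of 0.50 ± 0.12 (adjusted p = 0.0315) and was not called without ATEV replicate 2, ATEV replicate 3, PBS replicate 1 or PBS replicate 2 (adjusted p = 0.123, 0.0773, 0.106 and 0.156, and as low as 0.0264 over the 6 leave-one-out fits). Fas, the death receptor, rose from 3.16, 1.55 and 2.97 to 9.47, 12.6 and 12.9 CPM (log2 fold change 2.18 ± 0.30, adjusted p = 0.00103). Mlkl, the pore protein of necroptosis, was at 35.1, 32.4 and 25 CPM in PBS and 31.6, 40.9 and 42.7 CPM in ATEV libraries (log2 fold change 0.32 ± 0.25, adjusted p = 0.431).

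Several surface and secreted products of myeloid cells rose. Fcgr4, an activating Fc receptor, went from 5.03, 2.96 and 4.83 to 11.3, 17.3 and 19.3 CPM (log2 fold change 1.90 ± 0.25, adjusted p = 0.000921), as 1 of 4 rises among 7 tested Fc receptor genes. C3, the central complement component, went from 51.2, 52.2 and 33.2 to 91.3, 97.2 and 113 CPM (log2 fold change 1.14 ± 0.17, adjusted p = 0.00195), as 1 of 6 among 18 complement genes. Slamf7 and Slamf8, of the SLAM receptor family, rose by 3.64 ± 0.41 on the log2 scale (adjusted p = 0.000278) and 3.85 ± 0.56 (adjusted p = 0.00151). Ly6a, the Sca-1 antigen, went from 0.4, 0.282 and 0.388 to 4.74, 12.7 and 18.8 CPM (log2 fold change 5.05 ± 0.59, adjusted p = 0.000338), lowest in ATEV replicate 1 and highest in replicate 3. Clec4e, the lectin Mincle, went from 131, 127 and 98.3 to 251, 244 and 325 CPM (log2 fold change 1.20 ± 0.21, adjusted p = 0.00654). Itgal, the LFA-1 alpha chain, went from 31.4, 29.9 and 26.9 to 72.4, 70.3 and 70.5 CPM (log2 fold change 1.27 ± 0.17, adjusted p = 0.00103). The serpin protease inhibitor Serpina3f had 0 PBS counts and 94, 90 and 118 ATEV counts, a floor ratio of 111-fold. Its near-copy Serpina3g went from 0.679, 0.423 and 0.302 to 4.86, 6.59 and 12.2 CPM (log2 fold change 4.04 ± 0.47, adjusted p = 0.000353).

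In immunometabolism 3 of 14 tested genes rose and 1 fell. Acod1, which makes the antimicrobial metabolite itaconate, went from 70.6, 53.9 and 51.3 to 293, 441 and 456 CPM (log2 fold change 2.76 ± 0.33, adjusted p = 0.000366), and all ATEV libraries were several times above all controls. Ass1, which regenerates arginine, went from 107, 99.2 and 103 to 196, 191 and 181 CPM (log2 fold change 0.88 ± 0.12, adjusted p = 0.000954). Kmo, of tryptophan breakdown, fell from 4.59, 3.47 and 4.65 to 1.33, 1.67 and 1.38 CPM (log2 fold change -1.53 ± 0.38, adjusted p = 0.0383) and was not called in any leave-one-out fit (adjusted p from 0.0692 to 0.124).

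Macrophage markers rose in 6 of 17 tested members and fell in 1, and their summed level was 4644, 3984 and 4809.6 CPM in the PBS libraries and 5615, 7834 and 9571 CPM in the ATEV libraries, without overlap. Without Lyz2, the largest part of it, the sum was 2995, 2532 and 2925 CPM in PBS and 3147, 4118 and 4158 CPM in ATEV libraries, also without overlap. Lyz2, the lysozyme gene of myeloid cells and the most abundant rise, went from 1649, 1452 and 1885 to 2468, 3716 and 5413 CPM (log2 fold change 1.22 ± 0.23, adjusted p = 0.0113) and was not called without PBS replicate 2 (adjusted p = 0.0737, and as low as 0.00101 over the 6 leave-one-out fits). Siglec1, a sialic acid-binding receptor of macrophages, went from 47.8, 36 and 49 to 86.4, 144 and 118 CPM (log2 fold change 1.39 ± 0.23, adjusted p = 0.00459). Lair1, a collagen-binding inhibitory receptor that is not on the macrophage list, was at 28.4, 21.9 and 24.8 CPM in PBS and 35.4, 71.5 and 109 CPM in ATEV libraries (log2 fold change 1.52 ± 0.32, adjusted p = 0.0177). Lair1 was not called without ATEV replicate 2, ATEV replicate 3, PBS replicate 2 or PBS replicate 3 (adjusted p = 0.0617, 0.068, 0.0999 and 0.0584, and as low as 0.00099 over the 6 leave-one-out fits). The fall among macrophage markers was in Mrc1, the mannose receptor, at 1.68, 1.36 and 2.54 CPM in PBS and 0.474, 0.669 and 0.583 CPM in ATEV libraries (log2 fold change -1.69 ± 0.39, adjusted p = 0.0292). Mrc1 was not called in any leave-one-out fit (adjusted p from 0.0519 to 0.0897). The summed level of T cell markers was 96.2, 142 and 142 CPM in PBS and 139, 144 and 97.6 CPM in ATEV libraries, which overlapped. Of 13 defining T cell genes, 7 had 0 counts in all 6 libraries, Cd3e and Ifng among them, and the other 6 had at most 3 counts in any library. Of 6 tested T cell markers, Gata3 was called higher (log2 fold change 0.89 ± 0.22, adjusted p = 0.0419) and Cd28 lower (log2 fold change -0.83 ± 0.22, adjusted p = 0.0488). Gata3 was not called in any leave-one-out fit (adjusted p from 0.0591 to 0.138). Cd28 was not called without ATEV replicate 1, ATEV replicate 2, ATEV replicate 3, PBS replicate 2 or PBS replicate 3 (adjusted p = 0.0589, 0.119, 0.139, 0.138 and 0.113, and as low as 0.0271 over the 6 leave-one-out fits).

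The raised genes did not lie equally high in the 3 ATEV libraries. Replicate 1 was the lowest of the 3 for 231 of the 440 rises and the highest for 98, while over all genes tested it was lowest for 4961 and highest for 4953 of 13261. By group, 11 of the 21 raised antiviral effectors were highest in replicate 1, and 0 of the 6 raised immunoproteasome genes were. The order seen in the raised immunoproteasome genes was not confined to rises. Standard proteasome genes, of which edgeR called 0, summed to 5289, 6729 and 8531 CPM in ATEV replicates 1 to 3. Their sums also varied within the other groups, at 7485, 6713 and 6458.5 CPM in PBS replicates 1 to 3. With DNase-treated ATEV they were 7850, 5438 and 5486.5 CPM, and with NTEV 7528, 4977 and 6009 CPM. Replicate 1 was the highest in each of these other groups. Raised macrophage markers had a median ratio of highest to lowest ATEV library of 1.93, against 1.19 for class I heavy chains.

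Of 22 listed dendritic cell markers 11 were tested, of which 3 rose and 1 fell. Their summed level was 945, 1035 and 1037 CPM in PBS and 1291, 1108 and 1015 CPM in ATEV libraries, with overlap. Itgax went to 41.5, 45.8 and 30.9 CPM with ATEV (log2 fold change 1.29 ± 0.25, adjusted p = 0.0116) and was not called without ATEV replicate 2 or without PBS replicate 1 (adjusted p = 0.0614 and 0.0598, and as low as 0.016 over the 6 leave-one-out fits). Irf8 went to 152, 154 and 186 CPM (log2 fold change 0.55 ± 0.13, adjusted p = 0.0322). Irf8 was not called without ATEV replicate 2, ATEV replicate 3, PBS replicate 1, PBS replicate 2 or PBS replicate 3 (adjusted p = 0.0778, 0.0951, 0.0531, 0.176 and 0.0744, and as low as 0.0335 over the 6 leave-one-out fits). Bst2, an antiviral membrane tether, went from 70.9, 60.3 and 68.1 to 102, 98.4 and 111 CPM (log2 fold change 0.65 ± 0.11, adjusted p = 0.00543) and was not called without PBS replicate 2 (adjusted p = 0.0616, and as low as 0.0123 over the 6 leave-one-out fits). The fall was in Cd24a, described next.

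Fewer genes fell than rose. Cd24a (ENSMUSG00000047139), a glycosylphosphatidylinositol-anchored surface antigen of some dendritic cells, fell from 46.5, 71.4 and 78.5 to 9.81, 11.3 and 8.06 CPM (log2 fold change -2.75 ± 0.28, adjusted p = 0.000121). Atp7b, a copper exporter, fell from 2.28, 3.19 and 1.55 to 0.215, 0.191 and 0.265 CPM (log2 fold change -3.36 ± 0.45, adjusted p = 0.00091). Mmp8, a collagenase, fell from 10.1, 16.6 and 14 to 4.74, 2.34 and 2.92 CPM (log2 fold change -2.02 ± 0.27, adjusted p = 0.00088), and F10, coagulation factor X, from 14.3, 18.7 and 19.5 to 7.96, 4.3 and 5.3 CPM (log2 fold change -1.58 ± 0.25, adjusted p = 0.00302). The 4 genes were named among the largest falls, for which no overlap between groups was a condition. Maf, a transcription factor of macrophages and T cells, was at 28.4, 19.999 and 63.8 CPM in PBS and 5.98, 8.03 and 12 CPM in ATEV libraries (log2 fold change -2.11 ± 0.42, adjusted p = 0.0131) and was not called without ATEV replicate 2 (adjusted p = 0.0736, and as low as 0.00953 over the 6 leave-one-out fits). F13a1, the factor XIII A chain, was at 83.5, 88.2 and 173 CPM in PBS and 41, 12.7 and 14.6 CPM in ATEV libraries (log2 fold change -2.33 ± 0.48, adjusted p = 0.016) and was not called without ATEV replicate 2, ATEV replicate 3 or PBS replicate 3 (adjusted p = 0.0836, 0.0769 and 0.0561, and as low as 0.00262 over the 6 leave-one-out fits).

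**Figure D5:**
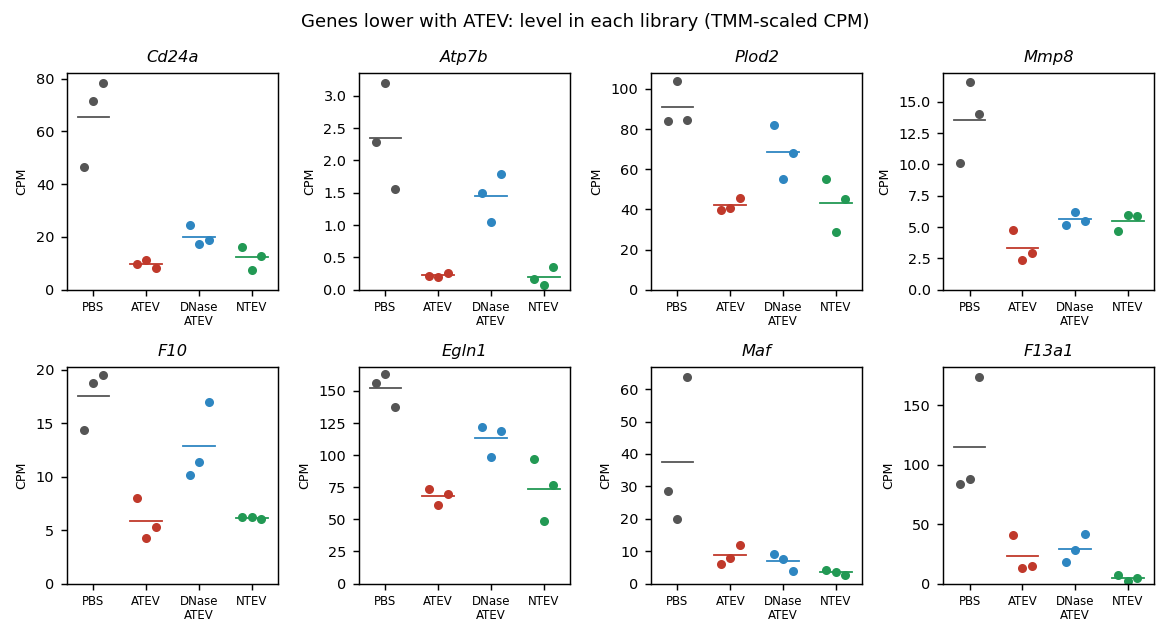
Points are TMM-scaled CPM of single libraries on a linear axis from 0, in groups of 3, and short lines are group means. ATEV libraries lie below PBS libraries in each panel, as for Cd24a (46.5, 71.4 and 78.5 CPM in PBS and 9.81, 11.3 and 8.06 CPM in ATEV), and the NTEV libraries of several panels lie near the ATEV libraries.

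Of 27 hypoxia targets tested 7 fell and none rose, with a median log2 fold change of -0.51, and without overlap 14 lay below the PBS libraries and 1 above. Egln1, an oxygen-sensing prolyl hydroxylase, fell from 156, 163 and 138 to 73.3, 61.1 and 69.6 CPM (log2 fold change -1.16 ± 0.20, adjusted p = 0.00549), and was the single hypoxia target whose call held in every leave-one-out fit. Plod2, a collagen lysyl hydroxylase, fell from 83.8, 104 and 84.5 to 39.7, 40.7 and 45.6 CPM (log2 fold change -1.11 ± 0.21, adjusted p = 0.00998) and was not called without ATEV replicate 2 or without PBS replicate 2 (adjusted p = 0.0537 and 0.0611, and as low as 0.0245 over the 6 leave-one-out fits). Of 23 glycolysis genes 2 fell and 1 rose (median -0.57), and without overlap 16 lay below the PBS libraries and 2 above. Over all genes tested 16.8% lay below and 16.3% above. Hk2, a hexokinase, fell from 181, 213 and 192 to 95.2, 124 and 118 CPM (log2 fold change -0.80 ± 0.14, adjusted p = 0.00836) and was not called without PBS replicate 2 (adjusted p = 0.056, and as low as 0.0218 over the 6 leave-one-out fits). Pdk1, which limits pyruvate entry to mitochondria, had a log2 fold change of -0.69 ± 0.15 (adjusted p = 0.0195) and was not called without ATEV replicate 2, ATEV replicate 3, PBS replicate 2 or PBS replicate 3 (adjusted p = 0.102, 0.0574, 0.0906 and 0.0586, and as low as 0.0235 over the 6 leave-one-out fits). Hk3, a myeloid hexokinase, was the rise at 0.71 ± 0.18 (adjusted p = 0.0472). Hk3 was not called without ATEV replicate 2, ATEV replicate 3, PBS replicate 1, PBS replicate 2 or PBS replicate 3 (adjusted p = 0.17, 0.078, 0.175, 0.1 and 0.0886, and as low as 0.0434 over the 6 leave-one-out fits).

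Cell cycle and mitosis genes fell in 5 of 43 tested members, with 24 below and 1 above the PBS libraries without overlap and a median log2 fold change of -0.37. None of the 5 kept its call in all leave-one-out fits. Kif11, a spindle motor and the most abundant of them, was at 365, 386 and 363 CPM in PBS and 247, 276 and 250.3 CPM in ATEV libraries (log2 fold change -0.53 ± 0.12, adjusted p = 0.0291), and was not called in any leave-one-out fit (adjusted p from 0.0555 to 0.14). Mki67, a proliferation marker, was at 537, 480.5 and 441 CPM in PBS and 310.0, 473 and 398 CPM in ATEV libraries, with overlap (log2 fold change -0.31 ± 0.18, adjusted p = 0.277). DNA replication genes fell in 1 of 39 tested, Pola1, a DNA polymerase subunit (log2 fold change -0.77 ± 0.18, adjusted p = 0.0321), which was not called in any leave-one-out fit (adjusted p from 0.0623 to 0.137). Their median log2 fold change was -0.34, and without overlap 21 of the 39 lay below the PBS libraries and 0 above. Neither edgeR nor limma-voom called any of 75 cytosolic ribosomal protein genes, 49 respiratory chain subunits, 35 cholesterol genes, 30 genes of the unfolded protein and integrated stress response or 34 immediate early genes. The ribosomal protein genes had a median log2 fold change of 0.32, with 38 of 75 at an unadjusted p under 0.05, all 38 higher with ATEV, and DESeq2 called 16 of them, all higher. Of the respiratory chain subunits 9 were at an unadjusted p under 0.05 (4 called by DESeq2), of the cholesterol genes 2 (1), of the stress response genes 3 (1) and of the immediate early genes 0 (0).

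The response was also set against vesicles that had met DNase. ATEV libraries were higher for 175 of the genes tested (1.32%) and lower for 19 (0.143%). These 194 calls became 522 without ATEV replicate 1, 104 without ATEV replicate 2, 103 without ATEV replicate 3, and 78 and 110 without DNase-treated ATEV replicates 2 and 3. All 6 tested guanylate-binding proteins, 7 of 9 immunity-related GTPases, 9 of 12 class I heavy chains and 14 of 38 antiviral effectors were higher with intact than with DNase-treated ATEV. Of 27 hypoxia targets edgeR and limma-voom called 0 against DNase-treated ATEV, while 11 were lower with intact ATEV at an unadjusted p under 0.05 in edgeR and DESeq2 called 6, all lower. Gbp2 was at 4.04, 1.47 and 2.34 CPM with DNase-treated ATEV, below the ATEV libraries (log2 difference 3.92 ± 0.34, adjusted p = 6.16e-05), and Psmb9 at 15.9, 16.6 and 17.9 CPM (log2 difference 2.05 ± 0.19, adjusted p = 6.54e-05). For Lgals9, at 28.9, 43.5 and 36.8 CPM, the log2 difference was 0.29 ± 0.18 (adjusted p = 0.462), and for Itgal, at 45.1, 75.2 and 75.4 CPM, 0.12 ± 0.17 (adjusted p = 0.767). These fits share the ATEV libraries with the comparison against PBS.

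Against NTEV, given at 30 µg/mL, ATEV libraries at 15 µg/mL were higher for 116 genes (0.875%) and lower for 8 (0.0603%), so vesicle source and amount cannot be told apart. These 124 calls became 302 without ATEV replicate 1, 82 without ATEV replicate 3 and 70 without NTEV replicate 3. All 6 guanylate-binding proteins, 7 of 9 immunity-related GTPases, 6 of 12 class I heavy chains and 12 of 38 antiviral effectors were higher with ATEV than with NTEV. Gbp2 was at 1.31, 0.681 and 0.895 CPM with NTEV (log2 difference 5.34 ± 0.38, adjusted p = 5.14e-06). Fas was at 7.45, 15.1 and 11.4 CPM with NTEV and 1.93, 2.27 and 2.25 CPM with DNase-treated ATEV. Its ATEV level differed from the DNase-treated group (log2 difference 2.43 ± 0.30, adjusted p = 0.00104) and the log2 difference from NTEV was 0.04 ± 0.28 (adjusted p = 0.961). Clec4e was at 234, 268 and 284 CPM with NTEV (log2 difference 0.06 ± 0.21, adjusted p = 0.921) and C3 at 104, 125 and 112 CPM (log2 difference -0.18 ± 0.17, adjusted p = 0.66). Of genes that fell against PBS, Cd24a was at 16.2, 7.65 and 12.8 CPM (log2 difference -0.33 ± 0.27, adjusted p = 0.602), Egln1 at 96.8, 48.7 and 76.5 CPM (log2 difference -0.12 ± 0.20, adjusted p = 0.813) and Atp7b at 0.173, 0.0801 and 0.348 CPM (log2 difference 0.21 ± 0.58, adjusted p = 0.902). Lcn2, the siderophore-binding lipocalin, was at 1.04, 0.563 and 0.474 CPM in PBS, 3.06, 3.39 and 3.13 CPM in ATEV and 26.6, 14.7 and 15.3 CPM in NTEV libraries, lower with ATEV than with NTEV (log2 difference -2.56 ± 0.35, adjusted p = 0.00204). Its rise against PBS was not called without PBS replicate 2 (adjusted p = 0.064, and as low as 0.0128 over the 6 leave-one-out fits).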

How the data were processed

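Gene counts of 12 mRNA libraries were used as the authors deposited them, raw counts per Ensembl gene with no normalization. Per the submitters' processing notes, bcl2fastq 2.19, TopHat2 2.0.11 and Cufflinks 2.1.1 were used with build mm9. For the read counter, its annotation and its strand setting nothing is given in the sources used here. Antisense and overlapping genes therefore cannot be told apart. Symbols of GENCODE M21 matched 42250 identifiers.

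Libraries were grouped by treatment label. edgeR 4.0.16 (R 4.3.3) fitted all 12 libraries in 4 groups with TMM scaling and filterByExpr (minimum count 10, total 15). The quasi-likelihood F test was two-sided, with Benjamini-Hochberg adjustment over 13261 genes and a threshold of 0.05. The same fit gave the comparisons with DNase-treated ATEV and NTEV. Replicates differed by more than sampling noise (chi-square per degree of freedom 14.8 to 132). On simulated counts for ATEV against PBS over 13092 genes, 72% of 2-fold and 89% of 4-fold changes were recovered. DESeq2 1.42.0, limma 3.58.1, other scalings and filters, a replicate block and leaving out each library were alternatives. Members, 66 gene lists and comparisons were chosen with earlier results of these data known. Genes named are the 15 largest changes in each direction, the 10 most abundant, up to 5 called per list, those with 0 PBS counts, and a panel, with others marked in the text. Promoters are RefSeq sequences of GRCm38.p6, a build other than the submitters' mm9, and were matched by symbol. Some genes are not reported here.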

Additional observations from a re-analysis of the deposited data

How the results depend on the processing

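Against PBS, 628 genes were called. DESeq2 called 1518, no filter beyond 1 count 1317, a fit of the 2 groups alone 1244 and the replicate block 1440. Leaving out 1 library gave 169 to 849 calls. Against DNase-treated ATEV (194 calls), DESeq2 called 495, no filter 394 and the leave-one-out fits 78 to 522, and the replicate block 261. Against NTEV (124 calls), DESeq2 called 370, no filter 242, the 2 groups alone 82, the leave-one-out fits 70 to 302, and the replicate block 135. The cause of these shifts was not tested. Nothing in the labels says that replicate numbers pair the libraries, so the block was not used in the text. Same-numbered ATEV and PBS libraries had correlations of deviations of -0.158, -0.0155 and -0.0669. For ATEV and DNase-treated ATEV they were -0.382, 0.0832 and -0.288, and for ATEV and NTEV -0.322, 0.0613 and 0.077. These values cannot decide whether the numbers mark something shared, because they leave out pairs among the other groups. Other scalings gave 628 (DESeq2 size factors) and 616 (upper quartile) calls against PBS, limma-voom 527 and a filter of at least 1 CPM in 3 libraries 611. Restricting promoter windows to bases upstream of the start gave ISRE shares of 12.1% of rises, 2.15% of falls and 2.66% of all tested, and GAS shares of 9.47%, 4.3% and 5.81%.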

Other observations

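Beyond the groups above, cathepsins and cystatins rose in 5 of 17 tested members and fell in none. Ctsh, an aminopeptidase of lysosomes, was at 18.1, 15.5 and 28.8 CPM in PBS and 43.5, 74 and 104 CPM in ATEV libraries (log2 fold change 1.83 ± 0.29, adjusted p = 0.00324). Of 28 antioxidant targets of NRF2, 3 rose and none fell, and Mgst1, a microsomal glutathione transferase, was at 41.1, 32.5 and 51.5 CPM in PBS and 68.3, 95.6 and 126 CPM in ATEV libraries (log2 fold change 1.21 ± 0.22, adjusted p = 0.00748). Both genes were lowest in ATEV replicate 1 and highest in replicate 3. Slfn2, a Schlafen protein of immune cells, was the single rise among 6 tested Schlafen genes, from 21.5, 15.8 and 19 to 39.1, 59.4 and 56.6 CPM (log2 fold change 1.46 ± 0.20, adjusted p = 0.0011). Axl, a receptor tyrosine kinase for apoptotic cells, went from 0.28, 0.329 and 0.388 to 2.15, 2.87 and 1.43 CPM (log2 fold change 2.68 ± 0.43, adjusted p = 0.00333).

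Among 33 tested myeloid transcription factors 2 rose and 4 fell. Rara, the retinoic acid receptor alpha, was at 50.9, 47.6 and 53.3 CPM in PBS and 30.7, 33.7 and 31.1 CPM in ATEV libraries (log2 fold change -0.67 ± 0.13, adjusted p = 0.0119) and was not called without PBS replicate 1 (adjusted p = 0.0517, and as low as 0.0274 over the 6 leave-one-out fits). Of the abundant falls, Idh2, a mitochondrial isocitrate dehydrogenase, was at 508, 503 and 529 CPM in PBS and 346, 354 and 344 CPM in ATEV libraries (log2 fold change -0.56 ± 0.11, adjusted p = 0.0137) and was not called without ATEV replicate 2, PBS replicate 1, PBS replicate 2 or PBS replicate 3 (adjusted p = 0.057, 0.0526, 0.0711 and 0.0547, and as low as 0.0283 over the 6 leave-one-out fits). The groups did not overlap for either gene, which held for 187 of the 188 called falls and so adds little to the call.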
